A study of Homo sapiens and Mus musculus with 16 samples.

Results

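Aminoacyl-tRNA synthetases were examined in the mRNA libraries of SK-HEP-1, an established line from a human liver tumour. The members were defined by gene symbol, and all 36 were among the 22314 genes of the mRNA table. They comprise 20 genes of cytosolic enzymes and 16 of mitochondrial enzymes, the latter with symbols ending in ARS2. The table uses older symbols, such as NARS for the gene now called NARS1. Cells were cultured with an ethanol extract of the fruiting body of the medicinal fungus Antrodia cinnamomea (AcFBE) at 0.5 mg/ml, or with DMSO, for 2 or 4 h. Polyadenylated RNA was then sequenced on the SOLiD 3 platform. The 4 libraries are 2U and 4U (untreated, DMSO) and 2T and 4T (treated, AcFBE), with 1 library per condition. There is therefore no replicate, no test and no p-value, and each difference below is one between libraries.

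An aminoacyl-tRNA synthetase joins an amino acid to its tRNA, the step that sets which amino acid each codon receives. The nucleus encodes separate sets of enzymes for the cytosol and for the mitochondrion, where a small number of respiratory chain proteins are made. KARS and GARS each encode both forms of their enzyme. The enzymes belong to 2 structural classes, I and II, and 8 of the cytosolic members are subunits of a multisynthetase complex held together by the scaffold proteins AIMP1, AIMP2 and EEF1E1. Transcription of many cytosolic synthetases is known to be raised by ATF4, the transcription factor of the amino acid response.

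The deposited values are FPKM (mapped fragments per kilobase of transcript, scaled to the size of the library), so each level is a share of its library. The libraries followed a protocol modified from one for single cells, in which cDNA was amplified by PCR before it was broken up. How evenly this represented genes of unlike length or GC content was not tested. Levels of different genes are therefore compared below as FPKM only. In a bulk culture, fewer cells that express a gene and less of its RNA per cell cannot be told apart. Between 8454 and 10691 genes were above 0 in a library. At 2 h the low values lay near multiples of 0.221 FPKM for 1 kb (2U) and 0.206 (2T), as whole reads would give. The mapped totals listed in the study would put a read at a smaller value, so read numbers given below are approximate. At 4 h no such step was clear and no value lay between 0 and 0.2 FPKM. Of 1614 genes at 10 FPKM or more in the other 3 libraries, 32 were listed at 0 in 2T, whereas none was listed at 0 in the same comparison for 2U, 4U or 4T. Of 1779 genes at 10 FPKM or more in both 4 h libraries, 43 were listed at 0 in both 2U and 2T, and 0 of these were members. Of 7 liver parenchyma markers, 5 were at 0 in all 4 libraries, ALB, APOA1, APOB, TTR and TF, and so were all 5 endothelial markers. AFP stayed below 1 FPKM, and SERPINA1 was present at 8.59 to 18.7 FPKM. Of 4 mesenchymal and 4 epithelial markers, 2 in each list were below 1 FPKM in all 4 libraries, and the other 2, VIM and SPARC and KRT8 and KRT18, were abundant.

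The cytosolic enzymes had a higher median FPKM than the mitochondrial ones in every library. The median cytosolic level stood at 9.98 FPKM (2U), 13.1 (2T), 15.8 (4U) and 14.7 (4T). The median mitochondrial level was 1.10 FPKM (2U), 0.896 (2T), 1.33 (4U) and 1.02 (4T). The ratio of the medians was 9.06 (2U), 14.6 (2T), 11.9 (4U) and 14.3 (4T). The 3 cytosolic members with the highest mean level were SARS, KARS and QARS, which charge the tRNAs for serine, lysine and glutamine. SARS was at 104 FPKM (2U), 90.9 (2T), 62.2 (4U) and 95.4 (4T), so it kept a high level throughout and its lowest value was in 4U. Of the mitochondrial members, 6 (AARS2, EARS2, LARS2, MARS2, PARS2 and TARS2) were below 1 FPKM in all 4 libraries, with values from 0 to 0.957 FPKM.

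**Figure D1:**
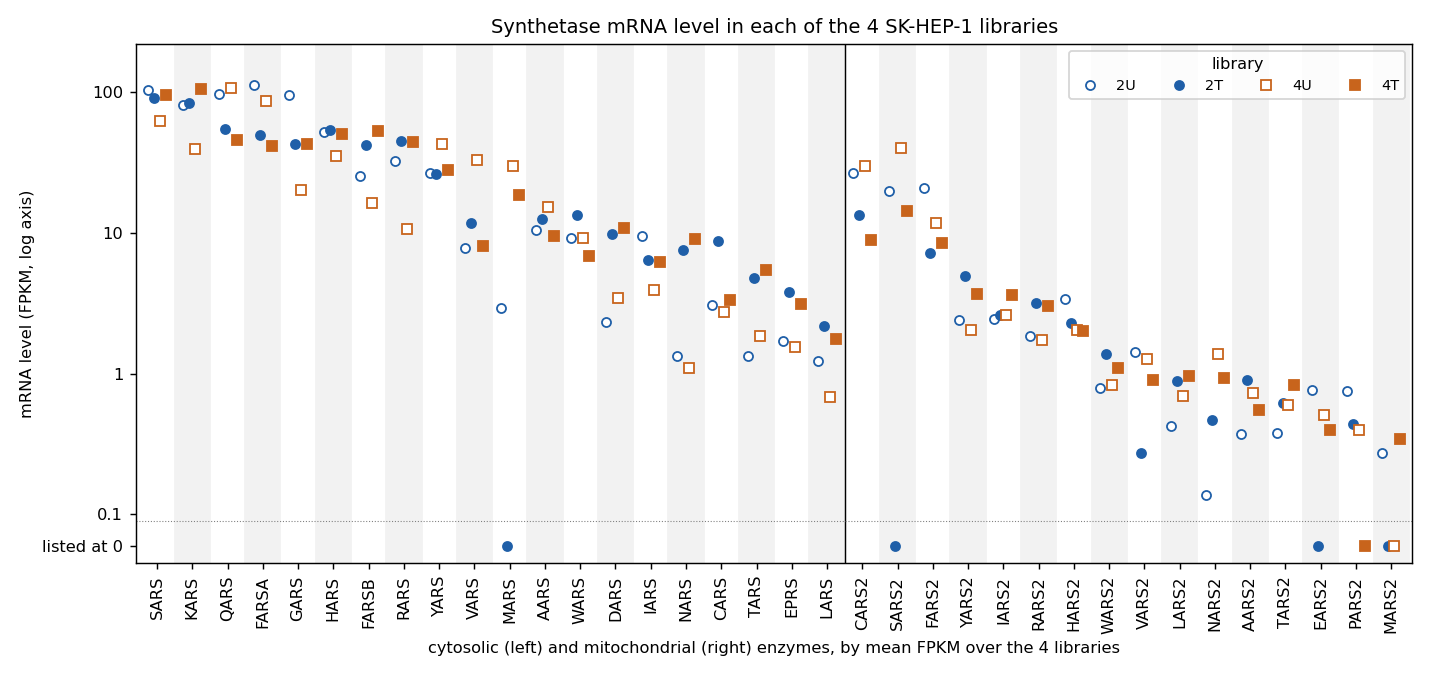
FPKM on a log axis of each synthetase by library, with cytosolic enzymes on the left and mitochondrial enzymes on the right, ordered by mean level. Each point is 1 library, and values of 0 are drawn on a separate line. The cytosolic medians lie between 9.98 and 15.8 FPKM and the mitochondrial medians between 0.896 and 1.33 FPKM.

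Treated over untreated ratios were formed directly, with nothing added to the FPKM, where a gene was above 0 in both libraries of a time point and reached 1 FPKM in at least 1 of them. This left 19 cytosolic members at 2 h and 20 at 4 h, and 8 and 10 of the 16 mitochondrial members. At 2 h, 5 of 19 cytosolic members were at least 2-fold higher in 2T and 2 were at least 2-fold lower, beside 23.5% and 19.9% of the 5475 genes compared. At 4 h, 9 of 20 were at least 2-fold higher in 4T and 3 lower, beside 16.6% and 28.2% of 5971 genes. LARS, among these 9, reached 1 FPKM at 4 h only in 4T. Set against genes of like GC content, as described below, 3 of 19 were at least 2-fold higher and 2 lower at 2 h, beside 20.8% and 18.5%. On that scale 4 of 20 were higher and 0 lower at 4 h, beside 9.75% and 11.1% of all genes. The median log2 ratio of the cytosolic members was 0.49 at 2 h and 0.64 at 4 h, where that of all genes was 0.02 and -0.37. Of the mitochondrial members, 1 of 8 was at least 2-fold higher and 2 lower at 2 h, and 0 of 10 were higher and 2 lower at 4 h. VARS2, among the 2 lower at 2 h, reached 1 FPKM there only in 2U, so it could be compared only because it was higher there. The median log2 ratio of the mitochondrial members was -0.24 at both times. This direction depended on the settings, since the median was 0.69 at 2 h without the minimum level and 0.13 at 4 h after centring on all genes, which also left 1 cytosolic member at least 2-fold lower at 4 h. The cytosolic median was thus above that of all genes at both times, whereas the mitochondrial median was below it at 2 h and slightly above it at 4 h.

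**Figure D2:**
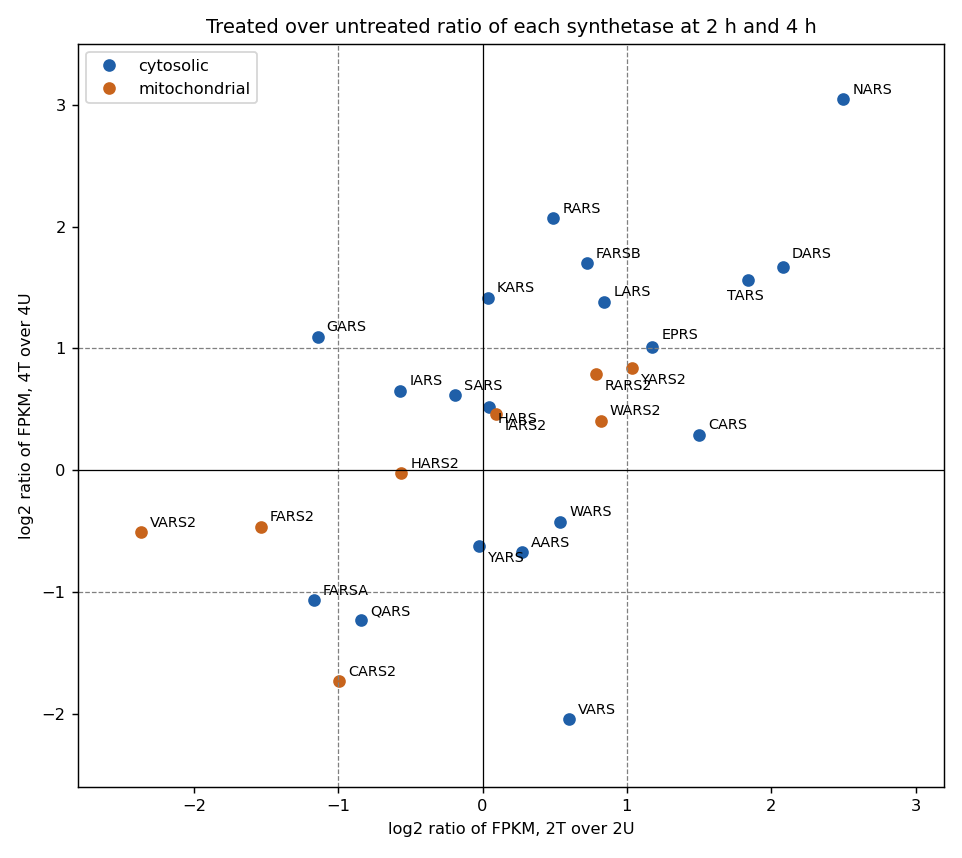
Log2 ratio of FPKM of each member compared at both times, 2T over 2U on the horizontal axis and 4T over 4U on the vertical axis. Each point is 1 gene from 1 pair of libraries per axis, and dashed lines mark 2-fold. NARS, DARS, TARS and EPRS lie past 2-fold on the higher side at both times, and FARSA on the lower side.

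Of the 19 cytosolic members compared at both times, 4 were at least 2-fold higher in the treated library at both, beside 8.58% of 5208 genes. These were NARS, DARS, TARS and EPRS. NARS, the asparaginyl-tRNA synthetase (GRCh37 chr18:55267888-55289445, minus strand), was at 1.33 FPKM (2U), 7.54 (2T), 1.10 (4U) and 9.04 (4T). Both untreated libraries were low and both treated libraries high, and the ratio was 5.65 at 2 h and 8.25 at 4 h. The 2 h values correspond to about 17 reads in 2U and 101 in 2T.

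DARS, the aspartyl-tRNA synthetase and a subunit of the multisynthetase complex (chr2:136663451-136743670, minus strand), was at 2.33 FPKM (2U), 9.86 (2T), 3.42 (4U) and 10.9 (4T). Its ratios were 4.23 (2 h) and 3.17 (4 h), and the treated and untreated values did not overlap. TARS, the threonyl-tRNA synthetase (chr5:33440802-33468196, plus strand), was at 1.34 FPKM (2U), 4.81 (2T), 1.84 (4U) and 5.43 (4T), ratios of 3.59 and 2.96. EPRS, which charges the tRNAs for glutamate and proline from a single chain, had ratios closest to the threshold. It was at 1.69 FPKM (2U), 3.83 (2T), 1.54 (4U) and 3.11 (4T), ratios of 2.26 and 2.02.

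Sequences around the starts of TARS and EPRS are shown because these genes were higher together, and that of FARSA, described below, because it was lower at both times. They are RefSeq promoters (GRCh38.p14, from 250 bases before to 50 after the start), available in the table used for 30 of the 36 members. DARS, LARS, VARS, YARS, AARS2 and VARS2 had no entry. Each was searched on both strands for TGATGNAA, the core of the C/EBP-ATF response element bound by ATF4, and for CCGGAAG, a core bound by ETS factors. The motifs do not overlap each other. Matches are in capitals.
TARS (chr5:33440715-33441014, plus strand): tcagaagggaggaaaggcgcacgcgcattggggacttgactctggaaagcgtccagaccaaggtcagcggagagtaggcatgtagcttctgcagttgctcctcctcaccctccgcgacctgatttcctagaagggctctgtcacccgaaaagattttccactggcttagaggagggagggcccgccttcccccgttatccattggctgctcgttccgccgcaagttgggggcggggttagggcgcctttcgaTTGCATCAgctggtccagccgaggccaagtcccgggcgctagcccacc
EPRS (chr1:220046456-220046755, minus strand): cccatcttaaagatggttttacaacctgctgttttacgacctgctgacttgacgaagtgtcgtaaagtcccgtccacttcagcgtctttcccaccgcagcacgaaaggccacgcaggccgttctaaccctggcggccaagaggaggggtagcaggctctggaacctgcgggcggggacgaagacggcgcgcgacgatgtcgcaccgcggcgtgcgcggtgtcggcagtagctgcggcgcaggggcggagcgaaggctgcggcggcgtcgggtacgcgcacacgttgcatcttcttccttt
FARSA (chr19:12933662-12933961, minus strand): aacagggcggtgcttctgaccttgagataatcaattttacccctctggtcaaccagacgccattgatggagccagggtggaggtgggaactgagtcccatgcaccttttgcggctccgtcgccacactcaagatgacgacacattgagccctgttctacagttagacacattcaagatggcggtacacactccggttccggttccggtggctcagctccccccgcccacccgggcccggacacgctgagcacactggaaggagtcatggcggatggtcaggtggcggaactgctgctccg

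TGATGNAA was found in 7 of the 30 promoters (23.3%), beside 3.67% of 27305 promoters of the same length. Besides TARS and NARS, these included AARS, CARS and YARS2, whose matches are shown with 12 bases on each side to compare them with TARS.
AARS (chr16:70289674-70289705, minus strand): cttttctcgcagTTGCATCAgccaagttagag
CARS (chr11:3057406-3057437, minus strand): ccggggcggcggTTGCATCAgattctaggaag
YARS2 (chr12:32756075-32756106, minus strand): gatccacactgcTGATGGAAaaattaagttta
In AARS, CARS and TARS the match reads TTGCATCA, the reverse complement of the TGATGCAA found in NARS. The match begins at base 15 of the 50 bases after the start in NARS and at base 3 of them in TARS, and 2 bases before the start in CARS. In AARS and YARS2 it lies 187 and 197 bases before the start. The 5 genes named here differed in their ratios. At 2 h the log2 ratio was 2.498 for NARS, 1.842 for TARS, 1.503 for CARS, 1.034 for YARS2 and 0.272 for AARS. At 4 h the log2 ratio was 3.05 for NARS, 1.56 for TARS, 0.84 for YARS2, 0.29 for CARS and -0.68 for AARS. CCGGAAG was found in 14 of the 30 promoters (46.7%), beside 10.7% of all promoters. HARS and HARS2 start close together on opposite strands. Their matches mirror each other, 83 and 9 bases before the start of HARS and 82 and 8 before that of HARS2. The 14 thus count the same stretch under both genes. For both motifs the comparison is with all promoters, whatever the level of the gene. Neither motif was found in the promoters of EPRS and FARSA, which says only that these letters are not in that window.

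CARS and YARS2 were past 2-fold on the higher side at 2 h only. CARS, the cytosolic cysteinyl-tRNA synthetase (GRCh37 chr11:3022152-3078843, minus strand), was at 3.10 FPKM (2U), 8.78 (2T), 2.72 (4U) and 3.33 (4T). Its 2T value stood apart from the other 3, and the ratio was 2.83 at 2 h and 1.22 at 4 h. YARS2, the mitochondrial tyrosyl-tRNA synthetase, was at 2.40 FPKM (2U), 4.92 (2T), 2.04 (4U) and 3.66 (4T), ratios of 2.05 and 1.79. Both treated values lay above both untreated values in CARS and in YARS2.

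At 4 h, 5 further cytosolic members were at least 2-fold higher, RARS, FARSB, KARS, LARS and GARS. RARS, the arginyl-tRNA synthetase (chr5:167913456-167946306, plus strand), was at 32.2 FPKM (2U), 45.2 (2T), 10.6 (4U) and 44.5 (4T). The treated values were close to each other, the untreated values differed, and the ratio was 1.41 at 2 h and 4.20 at 4 h. KARS, the lysyl-tRNA synthetase (chr16:75661372-75682541, minus strand), was at 81.5 FPKM (2U), 83.6 (2T), 39.5 (4U) and 106 (4T). Its ratio was 1.03 at 2 h and 2.67 at 4 h, with 4U the only low library. LARS, the leucyl-tRNA synthetase, was at 1.22 FPKM (2U), 2.19 (2T), 0.679 (4U) and 1.77 (4T), ratios of 1.80 and 2.61. In these 3 genes, and in FARSB and GARS, the 4U value was the lowest of the 4.

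GARS, the glycyl-tRNA synthetase (chr7:30620149-30673649, plus strand), was past 2-fold in opposite directions at the 2 times. It was at 95.2 FPKM (2U), 43.1 (2T), 20.2 (4U) and 43.0 (4T). The treated libraries were almost equal and lay between the untreated ones. The level was 2.21-fold lower at 2 h and 2.14-fold higher at 4 h.

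FARSA and FARSB encode the alpha and beta subunits of the cytosolic phenylalanyl-tRNA synthetase, which is active only as an assembly of both. FARSA (chr19:13033293-13044851, minus strand) was at 112 FPKM (2U), 49.95 (2T), 86.6 (4U) and 41.3 (4T). It was 2.25-fold lower at 2 h and 2.10-fold lower at 4 h, the single one of 19 cytosolic members at least 2-fold lower at both times, beside 10.5% of 5208 genes. FARSB (chr2:223431618-223520811, minus strand) was at 25.4 FPKM (2U), 41.9 (2T), 16.3 (4U) and 53.1 (4T), ratios of 1.65 and 3.25. The ratios of the subunits lay on opposite sides of 1 at both times. Against genes of like GC content they did not, with log2 values of -0.91 for FARSA and -0.09 for FARSB at 2 h and 0.02 and 0.58 at 4 h. FARSB over FARSA, both per length, was 0.226 in 2U and 0.189 in 4U, and 0.838 in 2T and 1.29 in 4T.

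QARS and VARS were at least 2-fold lower at 4 h only. QARS, the glutaminyl-tRNA synthetase (chr3:49133365-49142563, minus strand), was at 97.4 FPKM (2U), 54.4 (2T), 107 (4U) and 45.4 (4T). Both treated values were below both untreated values, and the level was 1.79-fold lower at 2 h and 2.35-fold lower at 4 h. VARS, the valyl-tRNA synthetase (chr6:31745295-31763529, minus strand), was at 7.77 FPKM (2U), 11.8 (2T), 33.2 (4U) and 8.05 (4T). It was 1.51 times as high in 2T as in 2U and 4.12-fold lower in 4T than in 4U, with 4U the only high library.

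The 6 cytosolic members that were past 2-fold at neither time and at 0 in no library, AARS, HARS, IARS, SARS, WARS and YARS, had log2 ratios between -0.57 and 0.54 at 2 h and between -0.68 and 0.65 at 4 h. In these genes treated and untreated values overlapped. Across members at 1 FPKM or more in at least 1 library, both treated values lay above both untreated values in 9 of 20 cytosolic and 3 of 10 mitochondrial genes, beside 22.7% of 6424 genes. Both lay below in 2 of 20 cytosolic and 4 of 10 mitochondrial genes, beside 32% of those genes. SARS2 is among these 4 with a listed 0 in 2T, and without it the count was 3 of 9. WARS2 reached 1 FPKM only in the treated libraries, and VARS2 only in the untreated ones.

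The mitochondrial set was dominated by CARS2, SARS2 and FARS2, which charge mitochondrial tRNAs with cysteine, serine and phenylalanine. Together they made up 81.3% of the summed mitochondrial FPKM (2U), 53.3% (2T), 84.6% (4U) and 63.4% (4T). The sum of all 16 was 82.5 FPKM (2U), 38.5 (2T), 96.1 (4U) and 49.99 (4T). The sum of the other 13 was 15.4, 18.0, 14.9 and 18.3 FPKM in the same order. The 2T sum and share include SARS2, which was listed at 0 there and at 19.7 FPKM in 2U, as a value of 0. Without SARS2 the sum of the remaining 15 was 62.8 (2U), 38.5 (2T), 56.2 (4U) and 35.7 (4T), and CARS2 and FARS2 together were at 47.4, 20.5, 41.4 and 17.4 FPKM. The sum was therefore lower in the treated libraries with and without SARS2.

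CARS2 (chr13:111293759-111365950, minus strand) was at 26.6 FPKM (2U), 13.4 (2T), 29.7 (4U) and 8.95 (4T). It was 1.99-fold lower at 2 h, just inside the threshold, and 3.32-fold lower at 4 h. FARS2 (chr6:5261277-5829425, plus strand) was at 20.8 FPKM (2U), 7.15 (2T), 11.7 (4U) and 8.47 (4T), so it was 2.91-fold lower at 2 h and 1.38-fold lower at 4 h. In both genes every treated value was below every untreated value. VARS2, the mitochondrial valyl-tRNA synthetase, was at 1.42 FPKM (2U), 0.275 (2T), 1.27 (4U) and 0.895 (4T). It was 5.17-fold lower at 2 h, where the 2T value corresponds to about 5 reads, and 1.43-fold lower at 4 h.

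Of the remaining mitochondrial members with a ratio, RARS2 was at 1.85 FPKM (2U), 3.19 (2T), 1.74 (4U) and 3.01 (4T), ratios of 1.72 and 1.73. WARS2 was at 0.785 FPKM (2U), 1.38 (2T), 0.824 (4U) and 1.09 (4T), ratios of 1.76 and 1.32. Treated values lay above untreated values in both. HARS2 and IARS2 overlapped between treated and untreated, with log2 ratios of -0.56 and 0.09 at 2 h and -0.02 and 0.46 at 4 h. NARS2 was at 0.138 FPKM (2U), 0.467 (2T), 1.38 (4U) and 0.932 (4T) and was compared at 4 h only, with a ratio of 0.677. TARS2 and LARS2, partners of members past 2-fold, were below 1 FPKM throughout and were not compared. TARS2 was at 0.3798 FPKM (2U), 0.614 (2T), 0.594 (4U) and 0.830 (4T). LARS2 was at 0.426, 0.886, 0.698 and 0.957 FPKM in the same order, and its low 2 h values give a ratio of 2.08. YARS, the cytosolic partner of YARS2, was at 26.8 FPKM (2U), 26.4 (2T), 43.0 (4U) and 28.01 (4T), so that 4U was the highest.

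For 14 mitochondrial enzymes a cytosolic gene was paired by symbol, which gives 15 pairs because FARS2 pairs with both FARSA and FARSB. EARS2 and PARS2 were left out of the pairs, although EPRS charges cytosolic tRNAs with their amino acids, glutamate and proline. The cytosolic gene had the higher FPKM in all 4 libraries in 11 pairs. These include SARS and SARS2, where SARS2 was listed at 0 in 2T. The cysteine pair was the exception in every library, since CARS over CARS2 was 0.116 (2U), 0.658 (2T), 0.0916 (4U) and 0.372 (4T). CARS2 therefore exceeded CARS throughout, by less in the treated libraries. NARS over NARS2 was 9.67 (2U), 16.1 (2T), 0.795 (4U) and 9.70 (4T), and VARS over VARS2 was 5.48, 42.8, 26.1 and 9.01 in the same order. The log2 ratio of treated over untreated was higher in the cytosolic gene in 5 of 9 pairs with both ratios at 2 h and in 7 of 11 at 4 h. These counts include VARS2 at 2 h and NARS2 at 4 h, which reached 1 FPKM there only in the untreated library. In the pairs of VARS2 at 4 h, which did so too, and of WARS2, which reached it only in treated libraries, the cytosolic ratio was the lower. FARS2 is counted with both FARSA and FARSB. The counts are therefore not read as a difference between the sets.

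Members listed at 0 in a library were MARS, SARS2, EARS2, MARS2 and PARS2. MARS, the cytosolic methionyl-tRNA synthetase (chr12:57869228-57911352, plus strand), was at 2.90 FPKM (2U), listed at 0 (2T), and at 29.7 (4U) and 18.5 (4T). SARS2 (chr19:39405906-39421403, minus strand) was at 19.7 FPKM (2U), listed at 0 (2T), and at 39.9 (4U) and 14.3 (4T), a level 2.79-fold lower in 4T than in 4U. SARS2 was among the 32 genes named above. In MARS and SARS2 the other 3 values lay above the limit that 3 reads set in 2T, 0.221 FPKM for MARS and 0.321 for SARS2. EARS2 was at 0.760 FPKM (2U), listed at 0 (2T), and at 0.511 (4U) and 0.4003 (4T). PARS2 was listed at 0 in 4T, after 0.755, 0.436 and 0.396 FPKM in 2U, 2T and 4U. MARS2 was listed at 0 in 2T and 4U and was at 0.274 FPKM (2U) and 0.341 (4T) in the others. A value of 0 may be a failed estimate, so no ratio was formed from these.

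By role, of the 8 subunits of the multisynthetase complex among the members, 5 (DARS, EPRS, KARS, LARS and RARS) were at least 2-fold higher at 4 h and QARS was lower, beside 16.6% and 28.2% of all genes. The median log2 ratio was 0.49 at 2 h and 1.20 at 4 h. Against genes of like GC content the median was -0.13 at 2 h and 0.26 at 4 h, and 2 of 8 were at least 2-fold higher at 4 h, beside 9.75% of all genes on that scale. The 3 scaffold genes were each at least 2-fold higher at 4 h, 2 of them also against genes of like GC content. AIMP1 and LARS reached 1 FPKM at 4 h only in 4T, so they could be compared only because they were higher there, and the same holds for EEF1E1 at 2 h. EEF1E1 was at 0.472 FPKM (2U), 30.3 (2T), 2.09 (4U) and 10.2 (4T), ratios of 64.1 and 4.88. AIMP2 was at 9.66 FPKM (2U), 15.7 (2T), 5.54 (4U) and 20.2 (4T), ratios of 1.63 and 3.65. AIMP1 was at 0.181 FPKM (2U), 0.928 (2T), 0.517 (4U) and 1.83 (4T). Both treated values were above both untreated values in all 3. By structural class, the 10 cytosolic class II members had a median log2 ratio of 0.16 at 2 h and 1.26 at 4 h, and the class I members 0.54 over 9 genes and -0.07 over 10. Set against genes of like GC content, the class II medians were 0.26 and 0.78 and the class I medians 0.25 and -0.13 at 2 h and 4 h.

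The genes acting before and after charging did not share one direction. Of the 6 genes for delivery of charged tRNA to the ribosome, EEF1A1, the elongation factor that carries charged tRNA, was at 265 FPKM (2U), 2017 (2T), 391 (4U) and 2081 (4T), ratios of 7.60 and 5.32. EEF1A1 has many near-identical copies in the genome, so its level is uncertain. TUFM, its mitochondrial counterpart, was at 112 FPKM (2U), 121 (2T), 274 (4U) and 94.7 (4T), 2.90-fold lower at 4 h. Of 8 tRNA maturation and export genes compared, 1 was at least 2-fold higher and 5 lower at 2 h, beside 23.5% and 19.9% of all genes. At 4 h 0 were higher and 2 lower, beside 16.6% and 28.2%. Against genes of like GC content 4 of 8 were lower at 2 h and 1 of 8 at 4 h, beside 18.5% and 11.1% of all genes on that scale. ELAC2, which trims the 3′ ends of precursor tRNAs, was 4.53-fold lower at 2 h and 3.13-fold lower at 4 h, and TSEN54, a subunit of the tRNA splicing endonuclease, 3.00-fold and 2.96-fold lower. The editing and recycling factors had 5 genes compared at each time, and none was past 2-fold. GATC, of the amidotransferase that makes mitochondrial glutaminyl-tRNA, was 2.82-fold lower at 4 h and reached 1 FPKM there only in 4U.

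The amino acid response genes, a list of 16 that includes known ATF4 targets, were compared in the same way. At 2 h, 1 of 8 compared was at least 2-fold higher and 6 were lower, beside 23.5% and 19.9% of all genes. At 4 h 1 of 10 was higher and 7 lower, beside 16.6% and 28.2%. Some passed the minimum of 1 FPKM only through the library where they were high, SLC7A5, CHAC1 and SESN2 at 2 h and SESN2 at 4 h, and these counts include them. The median log2 ratio of the list was -1.29 at 2 h and -1.62 at 4 h. Against genes of like GC content 1 was higher and 4 lower at 2 h, beside 20.8% and 18.5% of all genes on that scale. At 4 h 0 were higher and 3 lower, beside 9.75% and 11.1%, and the medians were -1.01 at 2 h and -0.66 at 4 h. ATF4 itself was at 535 FPKM (2U), 230 (2T), 431 (4U) and 310 (4T). ASNS, the asparagine synthetase, was at 15.9 FPKM (2U), 10.2 (2T), 3.97 (4U) and 12.4 (4T). Its ratio of 0.646 at 2 h and 3.13 at 4 h had the same order of untreated levels as GARS. TRIB3 was 4.97-fold and 3.27-fold lower and SESN2, a stress-induced sestrin, 14.3-fold and 7.87-fold lower at 2 h and 4 h. DDIT3, which overlaps the 3′ end of MARS by 982 bases on the opposite strand, was at 116 FPKM (2U), listed at 0 (2T), and at 50.2 (4U) and 10.99 (4T).

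**Figure D3:**
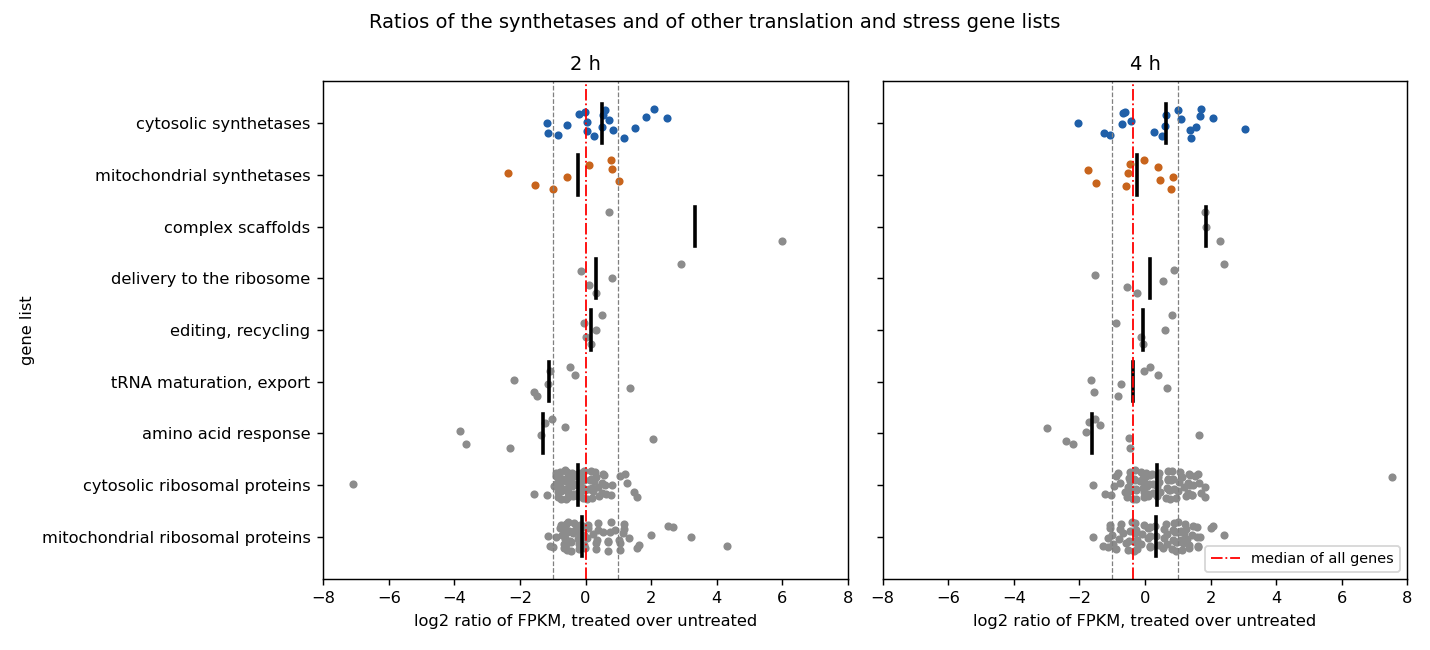
Log2 ratio of FPKM, treated over untreated, at 2 h (left) and 4 h (right) for the synthetases and the other gene lists. Each dot is a gene, the black bar is the median of the list and the red line the median of all genes. The cytosolic synthetases have medians of 0.49 and 0.64, the amino acid response genes -1.29 and -1.62.

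The ratio of a member moved with the GC content of its transcript, taken from the canonical GENCODE transcript, which ranged from 38.1% in DARS to 61.7% in VARS. The Spearman correlation of log2 ratio and GC content was -0.59 over 27 members at 2 h and -0.86 over 30 members at 4 h. Over all genes it was -0.25 (5321 genes) and -0.67 (5785 genes). These are correlations across genes of the same libraries, and genes are not replicates. All genes were divided into 5 bins of equal size by GC content. In the lowest bin the median log2 ratio at 4 h was 1.001, and 7 of the 11 members in it were at least 2-fold higher, beside 50.04% of all genes in that bin. In the highest bin the median was -1.15, and all 3 members in it, FARSA, SARS2 and VARS, were at least 2-fold lower, beside 59.5% of all genes there. The trend also lay between libraries of the same treatment. The correlation over all genes was 0.24 for 4U over 2U and -0.44 for 4T over 2T. The part of GC content in these differences was not tested.

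**Figure D4:**
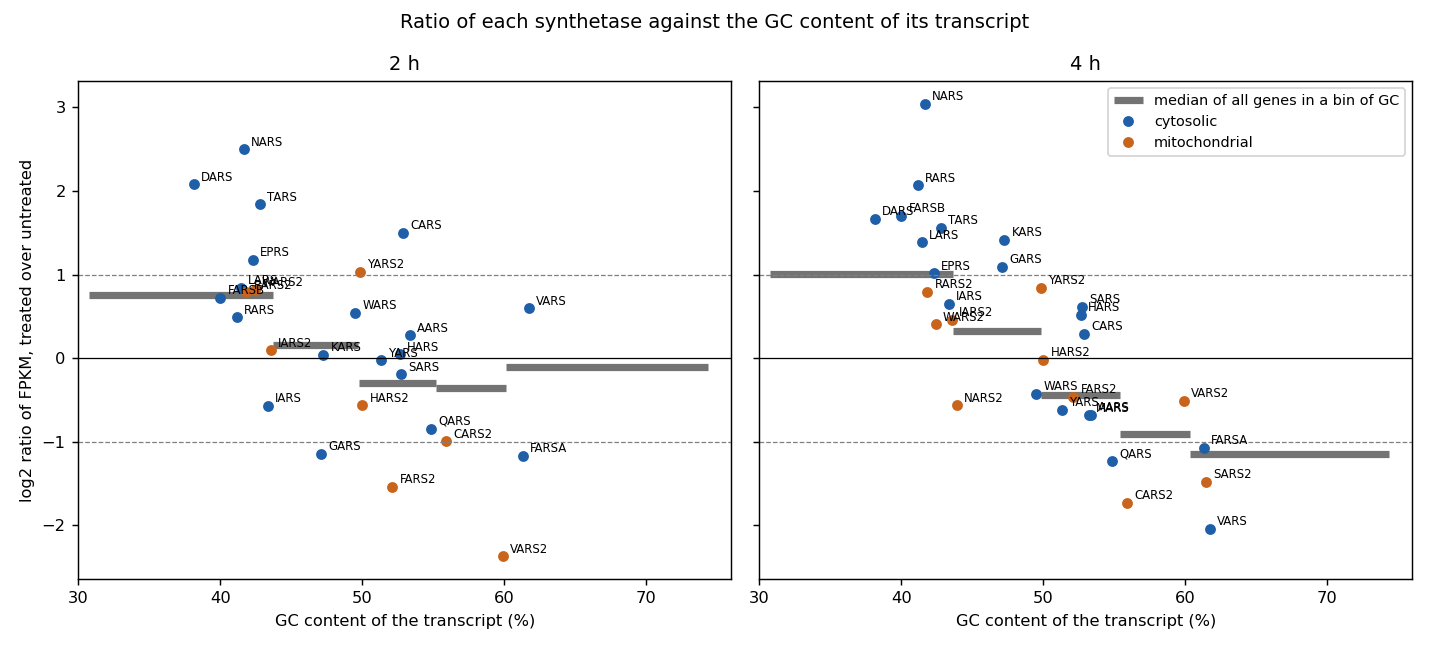
Log2 ratio of FPKM, treated over untreated, against the GC content of the transcript (%) at 2 h (left) and 4 h (right). Points are cytosolic and mitochondrial members, and grey bars are medians of all genes in 5 bins of GC content. At 4 h the medians run from 1.001 in the lowest bin to -1.15 in the highest. At 4 h NARS, KARS, RARS and SARS lie more than 1 log2 unit above the median of genes of like GC content, and NARS2 and CARS2 more than 1 below.

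Each log2 ratio was also set against the median of the genes nearest in GC content. At 2 h, CARS, NARS and TARS (3 of 19 cytosolic members) were at least 2-fold above genes of like GC, beside 20.8% of 5321 genes, as was YARS2. GARS, IARS, FARS2 and VARS2 were at least 2-fold below, beside 18.5%, and VARS2 reached 1 FPKM at 2 h only in 2U. At 4 h, NARS, RARS, KARS and SARS (4 of 20) were above, beside 9.75% of 5785 genes, and 0 of 20 cytosolic members were below, beside 11.1%. CARS2 and NARS2 were the mitochondrial members below at 4 h, and NARS2 reached 1 FPKM there only in 4U. NARS was therefore the member past 2-fold on this scale at both times, with 1.84 at 2 h and 2.13 at 4 h in log2 units. DARS was at 0.92 and 0.55, TARS at 1.32 and 0.66, EPRS at 0.61 and 0.14 and FARSA at -0.91 and 0.02. On this scale the cytosolic median was 0.25 at 2 h and 0.47 at 4 h.

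The untreated libraries differed from each other more than the treated ones did. Of 29 members compared, 8 were at least 2-fold apart between 4U and 2U, beside 34.2% of 5800 genes. Of 26 members, 1 (CARS) was at least 2-fold apart between 4T and 2T, beside 11.4% of 5382 genes. MARS was 10.2-fold and VARS 4.28-fold higher in 4U than in 2U, and GARS was 4.72-fold and RARS 3.04-fold lower. For GARS and VARS the difference between the untreated libraries was thus as large as or larger than the ratio at 4 h, 2.14 and 4.12 in size, and for RARS, with 4.20, it was somewhat smaller. NARS differed by 1.22-fold between 2U and 4U and by 1.20-fold between 2T and 4T, less than its treated over untreated ratios.

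Some members share sequence or position with another gene. Of the 36, 12 overlap another protein-coding gene in the annotation. HARS and HARS2, on opposite strands with starts 107 bases apart, overlap by 108 bases at their 5′ ends. KARS overlaps TERF2IP by 871 bases and CARS2 overlaps ING1 by 868 bases, each on the opposite strand. Longer overlaps on the opposite strand are those of YARS2 with DNM1L (18161 bases), MARS with ARHGAP9 (13370) and AARS2 with an unnamed gene (14617). SARS2 overlaps an unnamed gene by 15360 bases on the same strand. Its start lies 181 bases from that of MRPS12, which was at 196 FPKM in 2U and, like SARS2, listed at 0 in 2T. Whether reads were assigned by strand is not given in the sources used here, so reads of overlaps on opposite strands cannot be told apart. For overlaps on the same strand, assignment by strand would not separate them.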

How the data were processed

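The authors isolated polyadenylated RNA, sequenced it on the SOLiD 3 platform and deposited FPKM per gene for 4 SK-HEP-1 libraries. The submitters' processing notes name TopHat, Cufflinks and hg19 (GRCh37), and the study's methods name Bowtie and Cufflinks. Versions are not given in the sources used here. In the mRNA table no value column was left unused (0 columns). The miRNA tables were not used here, and some promoter matches are not reported here.

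Groups came from the labels. Ratios of the deposited FPKM were formed with no pseudocount, where a gene exceeded 0 in both libraries and reached 1 FPKM in 1 of them. Calls were 2-fold. A list is described by its counts and median beside those of all genes. The members, the gene lists and the motifs were chosen with earlier results of these data known, although the rule for the members uses symbols only. Values in all libraries are printed for members past 2-fold, the 3 most abundant of each set, their cytosolic or mitochondrial partners and members listed at 0. Transcript length and GC content are those of the canonical transcripts of GENCODE on GRCh37. Calculations used Python 3.11.15, numpy 2.4.6, pandas 2.3.3, scipy 1.17.1 and matplotlib 3.10.9, and the ratio step was tested on simulated data. Approximate reads at 2 h and the limit of 3 reads speak to counting error alone, because PCR copies of a fragment carried no identifier.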

Additional observations from a re-analysis of the deposited data

Results flagged for a closer look

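GARS moved in opposite directions at the 2 time points, and both changes were past 2-fold. Its log2 ratio of treated over untreated was -1.14 at 2 h and 1.09 at 4 h. The treated levels were 43.1 FPKM in 2T and 43.0 in 4T, and the untreated levels 95.2 in 2U and 20.2 in 4U. With 1 library per condition, the difference between the time points was not tested. Against genes of like GC content the values were -1.20 and 0.91.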

How the results depend on the processing

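No paired analysis was possible because the groups compared share fewer than 2 replicate numbers, with 1 library each, and no replicate could be left out. A fit with the time points as blocks, which would pair different conditions and not replicates, was not run. Alternatives gave 92 values. Of these, 71 kept their direction and stayed within 1.5 times the count, or within the rank interval of the median, 16 moved further and 5 changed direction. Centring on the median of all genes (a shift of -0.37 log2 at 4 h) left 1 cytosolic member at least 2-fold lower at 4 h, gave 2 mitochondrial members higher and turned the mitochondrial median to 0.13. Upper quartile scaling gave 1 and 2 and turned that median to 0.04. With a pseudocount of 1 FPKM, 0 mitochondrial members were higher and 1 was lower at 2 h. Without a minimum level, 4 mitochondrial members were higher at 2 h, their median turned to 0.69, and the cytosolic minus mitochondrial difference turned from 0.73 to -0.20. At 1 FPKM or more in all 4 libraries, 1 mitochondrial member was lower at 2 h and 1 at 4 h, and their 4 h median turned to 0.22 over 6 genes, because fewer genes were compared. At a fold of 1.5, 8 cytosolic and 3 mitochondrial members were higher at 2 h, and at 4 h 6 cytosolic members were lower and 2 mitochondrial ones higher. Centring on genes of like GC content, added after seeing the data, left 3 cytosolic members higher at 2 h and 4 higher and 0 lower at 4 h. The cytosolic median stayed above 0 under each alternative, from 0.25 to 0.49 at 2 h and from 0.47 to 1.01 at 4 h. Causes of the other shifts were not tested. With no replicate, the spread between cultures of a condition is not known, and members with few reads at 2 h, such as VARS2 with about 5 in 2T, carry a large counting error.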

Other observations

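The ribosomal protein genes, which make the machinery that uses charged tRNA, were compared as a backdrop. The cytosolic ribosomal proteins had a median log2 ratio of -0.23 over 77 genes at 2 h and 0.36 over 79 genes at 4 h. At 4 h, 20 were at least 2-fold higher and 3 lower, beside 16.6% and 28.2% of all genes, and against genes of like GC content 6 were higher and 2 lower, beside 9.75% and 11.1% on that scale. One of the 20, RPL21, reached 1 FPKM at 4 h only in the treated library. The mitochondrial ribosomal proteins had a median of -0.10 over 70 genes at 2 h and 0.33 over 75 genes at 4 h, where 22 were at least 2-fold higher and 6 lower, or 10 and 1 against genes of like GC content. Of these 22, 4 reached 1 FPKM at 4 h only in the treated library. The mitochondrial synthetases had -0.24 at both times. Many ribosomal protein genes have near-identical processed copies, so their levels are uncertain. The difference between the mitochondrial ribosomal proteins and the mitochondrial synthetases was not tested.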
